A study of Mus musculus with 12 samples.

Results

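MHC class I and peptide loading was followed through 10 genes: H2-K1 and H2-D1, which encode the classical class I heavy chains, B2M (β2-microglobulin, the light chain), TAP1, TAP2 and TAPBP (the peptide transporter and tapasin), PSMB8, PSMB9 and PSMB10 (the catalytic subunits of the immunoproteasome) and NLRC5 (the class I transactivator). They were taken from the deposited table of gene counts by matching symbols without regard to case, and 9 of the 10 had a row among the 21497 entries. The expression of PSMB9 was not analysed here. In the usual mouse form the others are H2-K1, H2-D1, B2m, Tap1, Tap2, Tapbp, Psmb8, Psmb10 and Nlrc5, and all 9 were among the 16042 genes that passed the filter on low counts.

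The study set wild-type mice (WT) against mice labelled Tet2-/-Flt3ITD, called T2F3 here as in the sample titles. Both were of C57BL/6 background, the donors were 0.35 years old, and no treatment was named. Tet2 encodes an enzyme that oxidises methylcytosine, and Flt3ITD is an activating internal duplication in a cytokine receptor. RNA came from sorted LSK and GMP cells of femur and tibia marrow, with 3 libraries in each of the 4 groups (WT LSK, T2F3 LSK, WT GMP and T2F3 GMP). GMP are granulocyte-macrophage progenitors, and LSK usually means cells that lack lineage markers and carry Kit and Sca-1, a fraction in which the stem cells lie, but the sort protocol in the labels writes both populations as Sca-1 negative. The labels give WT and T2F3 samples the same protocol, with depletion of mature lineage cells before the sort. The labels do not state that the libraries of a group came from separate animals, so each p-value is set against the spread among libraries, which may be technical. How the Tet2 and Flt3 alleles were made, and in which cells they are active, was not stated.

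Class I molecules show peptides from inside the cell to CD8 T cells. The proteasome cuts the peptides, TAP carries them into the endoplasmic reticulum, tapasin holds an empty heavy chain and β2-microglobulin close to TAP until a peptide binds, and the loaded complex goes to the surface. Interferon gamma swaps the standard catalytic subunits of the proteasome for the immunoproteasome subunits, and NLRC5 acts on class I promoters through factors bound at the X and Y boxes of the SXY module. Most nucleated cells, blood stem and progenitor cells among them, carry class I on their surface.

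Promoter sequences were compared because the class I transactivator is itself a member. RefSeq windows of 250 bases before to 50 bases after the start (GRCm38.p6) were found for 8 of the 10 listed genes. An X2 half-site (TGACG) followed after exactly 20 bases by a Y box (ATTGG), searched on both strands, was present in 3 of these 8 genes, H2-K1, H2-D1 and B2m. The same spaced pair was present in 31 of 32851 promoters of that length (0.0944%), whereas TGACG alone was in 20.8% and ATTGG alone in 37.4%. Only this spacing was searched, the members' own promoters are among the 32851, and a gene counted if any of its windows matched. The shares therefore describe the sequences and are not a test. Among 15 class Ib or class I-like genes with a window, 1 held the pair (H2-M3, a class Ib chain). The 145 bases around the pair are shown for the 3 members that hold it, on the gene's strand, with motifs in capitals: TGACG and ATTGG in each, the kB motif (GGGGANTCC, in 1.19% of promoters, here matched by overlapping copies on both strands) in the heavy chains, and the interferon-stimulated response element (GAAANNGAAA, in 3.44% of promoters) in B2m.
H2-K1: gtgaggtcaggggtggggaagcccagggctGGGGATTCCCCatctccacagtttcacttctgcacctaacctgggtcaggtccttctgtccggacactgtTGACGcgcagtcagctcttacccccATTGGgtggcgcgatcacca
H2-D1: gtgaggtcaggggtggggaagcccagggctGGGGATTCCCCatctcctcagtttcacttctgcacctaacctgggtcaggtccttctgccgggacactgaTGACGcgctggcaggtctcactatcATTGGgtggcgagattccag
B2m: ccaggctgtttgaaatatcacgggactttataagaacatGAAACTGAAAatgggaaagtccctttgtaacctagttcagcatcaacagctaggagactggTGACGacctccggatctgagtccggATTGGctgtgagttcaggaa

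The windows lie at chr17:34000344-34000488 on the minus strand for H2-K1, at chr17:35262893-35263037 on the plus strand for H2-D1 and at chr2:122147509-122147653 on the plus strand for B2m. H2-K1 and H2-D1 were identical at 131 of 146 alignment columns (89.7%), and B2m was identical to them at 49.1% and 50.9% of columns. The X2 half-site lay 41, 101 and 78 bases upstream of the annotated start in H2-K1, H2-D1 and B2m. Of the other members with a window, Tap1 and Psmb9 held both motifs but not as the spaced pair. Tapbp held a Y box, Psmb8 held a gamma-activated site (TTCNNNGAA, in 8.3% of promoters), and Psmb10 held none of the motifs searched. A match describes the letters and is not evidence of binding.

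Libraries held 13316474 to 23536258 counts, and every member had at least 975 counts in every library. Replicate 1 of each group had fewer entries with counts (71.15% to 80.81%) than replicates 2 and 3 (83.7% to 89.78%). Tet2 stood at 79.0 to 89.0 CPM (counts scaled to a common library size by TMM) in WT LSK and between 40.9 and 89.1 CPM in T2F3 LSK, so 1 of the 3 T2F3 LSK libraries was not below WT. It stood at 106.6 to 137.6 CPM in WT GMP and 66.2 to 96.4 CPM in T2F3 GMP. The gene that encodes Sca-1, Ly6a, had a mean of 22.9 CPM in WT LSK and 2.22 CPM in WT GMP, with 27.5 and 4.15 CPM in T2F3. The 8 GMP markers summed to 21253.9 to 54567.2 CPM in WT GMP and 1951.2 to 3064.1 CPM in WT LSK. The GMP markers summed to 9768.9 to 20372.5 CPM in T2F3 GMP and 3582.3 to 5441.0 CPM in T2F3 LSK. In T2F3 LSK the 8 LSK markers summed to 413.9 to 502.5 CPM, against 1389.9 to 1971.3 CPM in WT LSK and 442.9 to 617.9 CPM in WT GMP. These are bulk samples, in which fewer cells of a type and less RNA per cell cannot be told apart.

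Per kilobase of exon (GENCODE vM21), B2m was the most abundant member in all 4 groups and Nlrc5 the least. The mean level of B2m was 844.9, 1075.4, 667.7 and 912.4 CPM per kb in WT LSK, T2F3 LSK, WT GMP and T2F3 GMP, and it overlapped no other member. The heavy chains came next, at 176.4 to 302.8 CPM per kb for H2-K1 and 207.2 to 238.2 CPM per kb for H2-D1. In WT LSK the libraries of H2-K1 (288.1 to 323.8 CPM per kb) were all above those of H2-D1 (208.8 to 222.9). In the other 3 groups H2-D1 had the higher mean but overlapped H2-K1. Tapbp followed at 64.7 to 84.2 CPM per kb, then Psmb10 and Psmb8, which overlapped each other in every group and, in WT LSK, overlapped Tap2. Tap1 and Tap2 were at 23.3 to 41.4 CPM per kb and changed places between groups, and T2F3 GMP was the single group in which they did not overlap (31.4 ± 3.7 for Tap1 and 23.3 ± 3.23 for Tap2, SD, n = 3). Nlrc5 stood at 25.6, 26.7, 10.8 and 19.1 CPM per kb in the same order of groups.

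**Figure D1:**
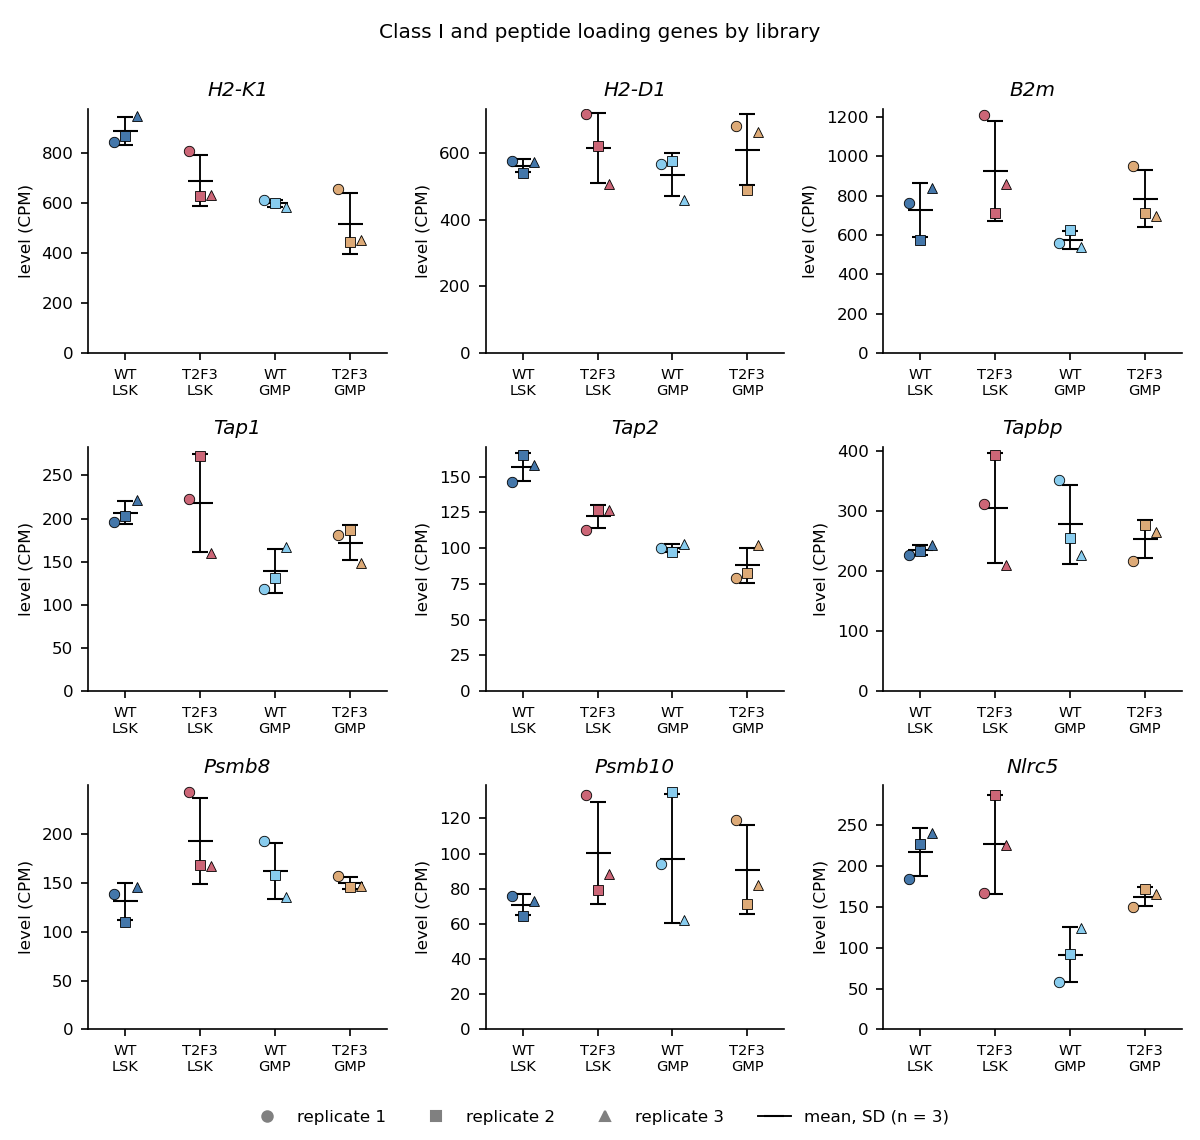
Level in CPM (linear axis from 0) of the 9 class I and peptide loading genes in the 12 libraries, with 1 point per library, shapes for replicate numbers, and bars for the mean and SD of 3 libraries. The 3 WT LSK points of Tap2 lie above all other groups, and the 3 WT GMP points of Nlrc5 lie below them.

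Between genotypes no member passed the test in either population, while between WT LSK and WT GMP Nlrc5 and Tap2 did, both lower in GMP. In LSK, 0 of 9 members were called by edgeR's quasi-likelihood test (adjusted p under 0.05, Benjamini-Hochberg over all genes), against 5.2% of all genes. At an unadjusted p under 0.05 there were 2, against 21.5% of all genes, and limma-voom and DESeq2 each called 0. In GMP 0 of 9 were called against 1.14% of all genes. There 1 was at an unadjusted p under 0.05, against 13.6% of all genes, with 1 called by limma-voom and 0 by DESeq2. For the difference between these genotype effects 0 of 9 were called, against 0.0249% of all genes. There 1 was at an unadjusted p under 0.05, against 9.47% of all genes, and 0 were called by either other tool. In WT, 2 of 9 were called between GMP and LSK, both lower in GMP, against 13.1% of all genes in either direction and 7.37% lower. There 4 were at an unadjusted p under 0.05, against 28.3% of all genes, and limma-voom and DESeq2 each called 4 (Nlrc5, Tap2, Tap1 and H2-K1). The shares of all genes that limma-voom and DESeq2 called are not given here. In T2F3, 0 of 9 were called between GMP and LSK, against 0.972% of all genes. There 1 was at an unadjusted p under 0.05, against 7.99% of all genes, and 0 were called by either other tool. The groups did not overlap for 4 of 9 members by genotype in LSK and 2 of 9 in GMP, against 27.9% and 21.7% of all genes. For GMP against LSK they did not overlap for 4 of 9 in WT and 2 of 9 in T2F3, against 31.5% and 15.3%. The median log2 difference of the members was 0.13 and -0.10 by genotype in LSK and GMP, and -0.34 between populations in both WT and T2F3, where the medians over all genes were 0.05, 0.02, 0.01 and -0.02. The genotype comparisons share libraries with the population comparisons, so their values are given side by side and not as separate support.

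**Figure D2:**
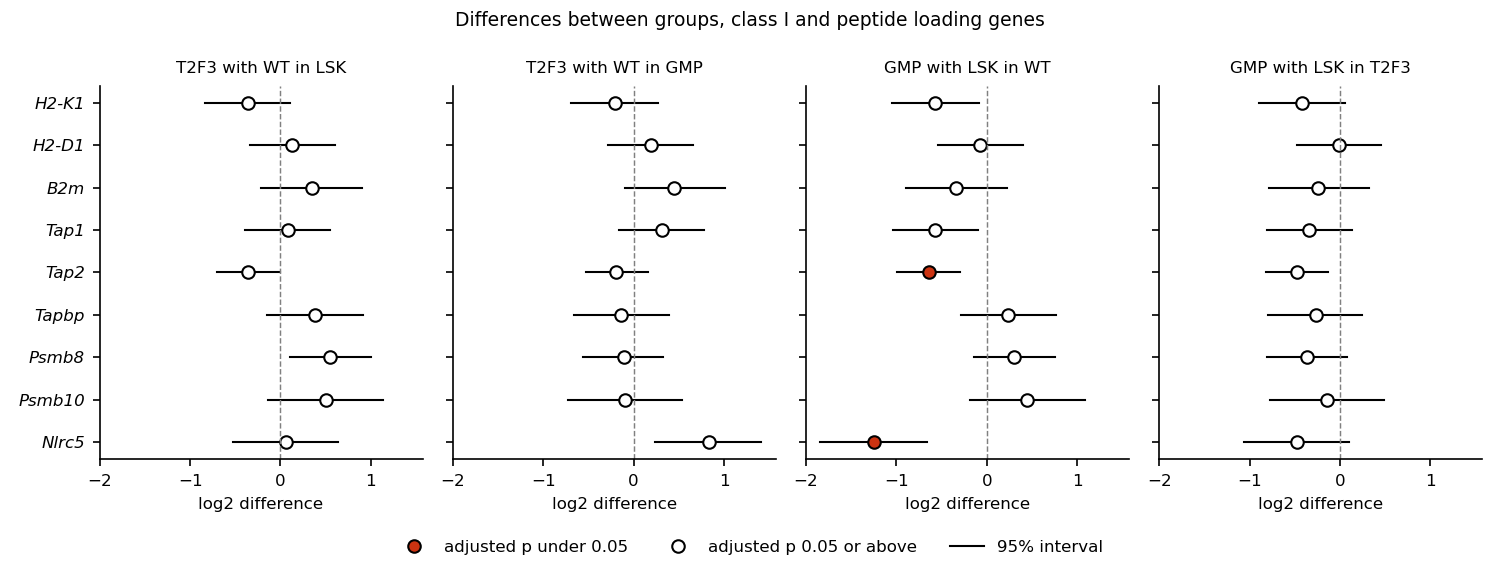
Log2 difference (x axis) of each member (y axis) in 4 comparisons, with 95% intervals from the fit over 12 libraries; filled points had an adjusted p under 0.05. The filled points are Tap2 and Nlrc5 in the comparison of WT GMP with WT LSK, at -0.64 and -1.25.

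H2-K1, one of the heavy chains that bind the peptide, stood at 846.3, 871.3 and 951.2 CPM in WT LSK, against 810.6, 630.6 and 632.3 CPM in T2F3 LSK. All 3 T2F3 LSK libraries were below all 3 WT LSK libraries, with a log2 difference of -0.36 ± 0.22 (SE) that did not pass (adjusted p = 0.374, edgeR). In GMP it stood at 611.7, 600.9 and 586.5 CPM in WT and 659.1, 443.7 and 452.1 CPM in T2F3. There the T2F3 libraries lay on both sides of WT (log2 difference -0.21, 95% interval -0.69 to 0.27). Every WT GMP library was below every WT LSK library, by 1.48-fold (log2 difference -0.57 ± 0.22), which did not pass in edgeR without a block (adjusted p = 0.109). The difference passed with the animal, as read from the titles, as a block (0.0459), in limma-voom (0.0214) and in DESeq2 (0.0149).

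H2-D1, the other classical heavy chain of this strain, had the smallest differences of the members between populations. It stood at 574.9, 538.5 and 571.5 CPM in WT LSK, at 716.2, 619.7 and 506.7 CPM in T2F3 LSK, at 567.6, 575.6 and 459.6 CPM in WT GMP and 679.3, 488.0 and 661.5 CPM in T2F3 GMP. The groups overlapped in each comparison. The 95% intervals of the log2 difference were -0.34 to 0.60 by genotype in LSK, -0.28 to 0.66 in GMP, -0.54 to 0.40 between populations in WT and -0.48 to 0.46 in T2F3. Heavy chain reads are not all unique to 1 gene: of the 25-base words in its annotated transcripts, 36.2% of those of H2-D1 and 29.5% of those of H2-K1 also occur in other genes, and 13.9% and 6.87% of the 50-base words. The sources used here do not say how shared reads were counted, so levels of the heavy chains, classical and class Ib, are uncertain to that extent.

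B2m, the shared light chain without which class I does not reach the surface, stood at 762.9, 576.5 and 840.5 CPM in WT LSK, against 1207.0, 709.1 and 858.6 CPM in T2F3 LSK. The genotypes overlapped there (log2 difference 0.35, 95% interval -0.21 to 0.90). In GMP it stood at 561.0, 624.1 and 537.6 CPM in WT and 950.2, 709.6 and 694.1 CPM in T2F3. All 3 T2F3 GMP libraries were above WT, by 1.37-fold, but the difference did not pass (log2 0.45 ± 0.26, adjusted p = 0.495, edgeR). Replicate 1 was the highest library of both T2F3 groups.

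The balance among the 3 genes was taken within each library as a ratio of raw counts, which does not depend on the scaling. The ratio of H2-K1 to H2-D1 was 1.47, 1.62 and 1.66 in WT LSK and 1.13, 1.02 and 1.25 in T2F3 LSK. In GMP it was 1.08, 1.04 and 1.28 in WT and 0.97, 0.909 and 0.683 in T2F3. WT LSK was thus highest and T2F3 GMP lowest, and the groups overlapped neither by genotype (1.4-fold lower in T2F3 LSK and 1.34-fold lower in T2F3 GMP) nor by population (1.4-fold and 1.34-fold lower in GMP). The ratio of B2m to both heavy chains together was 0.537, 0.409 and 0.552 in WT LSK and 0.791, 0.567 and 0.754 in T2F3 LSK. In GMP this ratio was 0.476, 0.53 and 0.514 in WT and 0.71, 0.762 and 0.623 in T2F3. It was higher in all T2F3 libraries than in the WT libraries of the same population, by 1.41-fold in LSK and 1.37-fold in GMP, and it overlapped between populations. The exact two-sided permutation p was 0.1 for each of these 6 separations, the smallest that 3 libraries against 3 allow, and 0.286 after Benjamini-Hochberg adjustment over the 20 ratio tests made. The ratios were picked with the members' levels known.

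**Figure D3:**
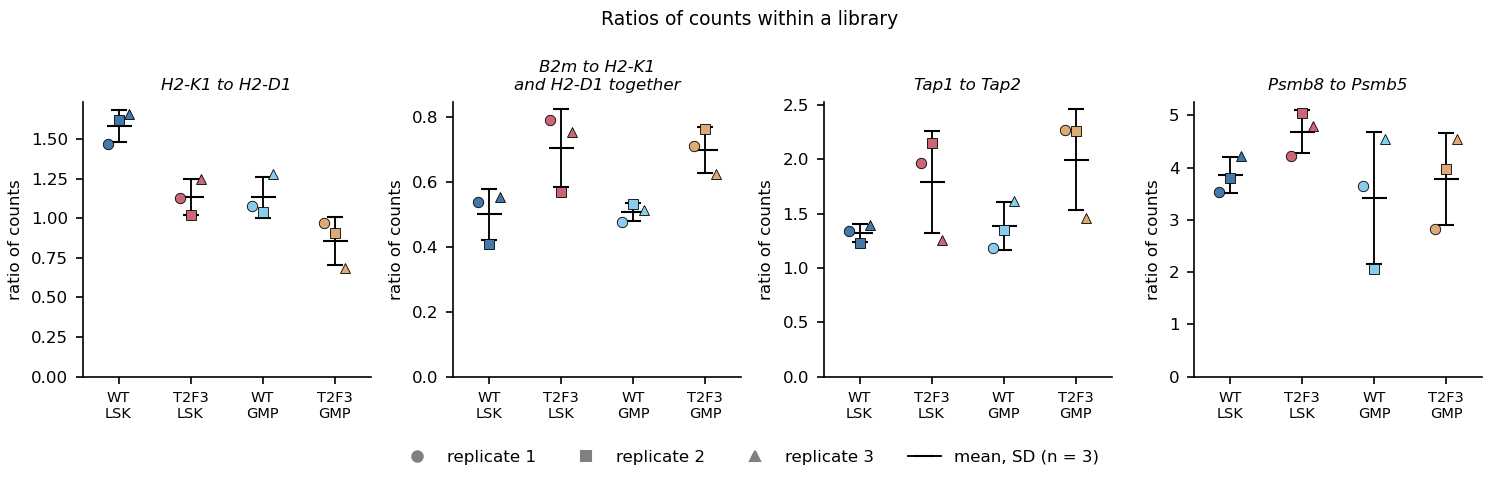
Ratio of raw counts within a library (linear axes from 0) for H2-K1 to H2-D1, B2m to both heavy chains, Tap1 to Tap2 and Psmb8 to Psmb5, with 1 point per library and bars for the mean and SD of 3 libraries. The ratio of H2-K1 to H2-D1 runs from 1.66 in WT LSK to 0.683 in T2F3 GMP, and that of B2m to the heavy chains is higher in T2F3 than in WT in both populations.

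Tap2, a subunit of the peptide transporter, fell from WT LSK to WT GMP. It stood at 146.3, 165.3 and 158.2 CPM in WT LSK and 100.2, 97.4 and 103.2 CPM in WT GMP. No library overlapped, and the fall was 1.56-fold (log2 difference -0.64 ± 0.16, 95% interval -0.99 to -0.30, adjusted p = 0.0195, edgeR). With the animal as a block the adjusted p was 0.0202. The call was lost when blocked by library code (adjusted p = 0.0908), with the 6 WT libraries alone (0.0548), without both WT replicate 1 libraries (0.053), and without WT LSK replicate 2 (0.0696), WT GMP replicate 1 (0.0518) or WT GMP replicate 2 (0.0756). T2F3 LSK lay between, at 113.0, 127.0 and 127.0 CPM, all below WT LSK (log2 difference -0.36 ± 0.16, unadjusted p = 0.044, adjusted p = 0.218). T2F3 GMP stood at 79.3, 82.7 and 102.0 CPM, all below T2F3 LSK (log2 difference -0.48 ± 0.16, adjusted p = 0.275) and overlapping WT GMP.

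Tap1, the partner subunit, stood at 195.4, 203.1 and 221.1 CPM in WT LSK and 118.3, 131.2 and 167.4 CPM in WT GMP. All WT GMP libraries were lower (log2 difference -0.57 ± 0.22), with an adjusted p of 0.102 in edgeR, 0.0375 with the animal as a block, 0.0478 in limma-voom and 0.0433 in DESeq2. In T2F3 it stood at 222.1, 272.7 and 159.7 CPM in LSK and 180.4, 187.1 and 149.0 CPM in GMP, overlapping WT in both populations. The ratio of Tap1 to Tap2 counts, whose products form the transporter as a pair, was 1.34, 1.23 and 1.4 in WT LSK and 1.18, 1.35 and 1.62 in WT GMP. The T2F3 LSK libraries had 1.97, 2.15 and 1.26, and those of T2F3 GMP had 2.27, 2.26 and 1.46. Replicates 1 and 2 of T2F3 were above every WT library and replicate 3 was not, so the genotypes overlapped (exact permutation p = 0.3 in LSK and 0.2 in GMP, n = 3 per group).

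Tapbp, which encodes tapasin, stood at 227.4, 232.9 and 244.3 CPM in WT LSK, a narrow range, and at 312.1, 394.0 and 210.5 CPM in T2F3 LSK. Replicate 3 of T2F3 LSK was below WT and the other 2 above (log2 difference 0.38, 95% interval -0.15 to 0.91). In GMP it stood at 351.4, 255.5 and 226.7 CPM in WT and 216.9, 276.1 and 265.9 CPM in T2F3, with overlap.

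Psmb8, whose product takes the place of the Psmb5 product in the immunoproteasome, stood at 138.5, 109.9 and 145.7 CPM in WT LSK, against 243.2, 167.9 and 166.7 CPM in T2F3 LSK. All T2F3 LSK libraries were higher, by 1.47-fold, a difference with an unadjusted p of 0.0192 that did not pass (log2 0.55 ± 0.21, adjusted p = 0.139, edgeR). In GMP the genotypes overlapped, at 192.3, 157.7 and 135.6 CPM in WT and 156.5, 146.0 and 146.8 CPM in T2F3. The difference between the genotype effects was 0.66 on the log2 scale (95% interval 0.03 to 1.29, unadjusted p = 0.0401, adjusted p = 0.519). The ratio of Psmb8 to Psmb5 counts was 3.54, 3.81 and 4.22 in WT LSK and 4.23, 5.04 and 4.79 in T2F3 LSK, just without overlap (exact permutation p = 0.1, n = 3 per group). In GMP it ranged from 2.06 to 4.55 in WT and from 2.83 to 4.54 in T2F3. Within T2F3 all 3 GMP libraries had less Psmb8 in CPM than all 3 LSK libraries (log2 difference -0.36 ± 0.21, adjusted p = 0.848, edgeR).

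Psmb10, whose product takes the place of the Psmb7 product, stood at 76.0, 64.3 and 72.8 CPM in WT LSK, against 133.2, 79.2 and 88.2 CPM in T2F3 LSK. The T2F3 LSK libraries were all higher (log2 difference 0.50 ± 0.29, adjusted p = 0.362, edgeR), replicate 1 by far the most. In both GMP groups Psmb10 had the largest SD relative to its mean among the members, at 94.0, 135.2 and 62.4 CPM in WT and 119.3, 71.2 and 82.1 CPM in T2F3. Its ratio to Psmb7 overlapped between the groups in all 4 comparisons (exact permutation p = 0.4 to 1.0, n = 3 per group).

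Nlrc5, the class I transactivator, had the largest difference of any member. It stood at 184.1, 227.3 and 240.4 CPM in WT LSK and 58.1, 92.1 and 124.6 CPM in WT GMP, with no overlap. It fell 2.37-fold in GMP (log2 difference -1.25 ± 0.27, 95% interval -1.84 to -0.66, adjusted p = 0.0103, edgeR), also with the animal as a block (adjusted p = 0.00428). The call held when any 1 library was left out (adjusted p up to 0.0413) and was lost when blocked by library code (0.0612). T2F3 GMP stood at 150.1, 171.5 and 166.0 CPM, all above WT GMP by 1.77-fold (log2 0.83 ± 0.27, 95% interval 0.24 to 1.41, unadjusted p = 0.00925). This did not pass in edgeR (adjusted p = 0.185) or DESeq2 (0.0718) and passed in limma-voom (0.0389). T2F3 LSK, at 166.6, 287.3 and 225.6 CPM, overlapped both WT LSK and T2F3 GMP. The difference between the genotype effects was -0.77 on the log2 scale (95% interval -1.59 to 0.06, adjusted p = 0.557), so an effect of genotype that differs between the populations was not shown. The same term stands for a difference between WT and T2F3 in the step from LSK to GMP, which was likewise not shown.

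Counts over the pathway around the members were read from 10 lists of 137 different genes, chosen with earlier results of these data known. Of the class Ib and class I-like heavy chains, 6 of 20 tested fell from WT LSK to WT GMP and 1 rose, against 7.37% and 5.72% of all genes, with a median log2 difference of -1.21 (all genes 0.01). H2-Q4 fell 3.98-fold, from 233.4, 177.8 and 156.4 CPM to 24.1, 56.2 and 62.2 CPM (adjusted p = 0.00156, edgeR). H2-K2 fell 4.07-fold (adjusted p = 0.00813), and H2-Q6, H2-Q7, H2-Q10 and H2-T10 also fell. The gene that rose was Hfe, an iron regulator that folds like class I, by 5.07-fold (adjusted p = 0.00209). By genotype Hfe rose 2.79-fold in T2F3 LSK (adjusted p = 0.0423) and Fcgrt, the neonatal Fc receptor chain, rose 8.52-fold in T2F3 GMP (adjusted p = 0.0379). The other 19 of 20 did not pass in each comparison. Of all genes 2.76% were called higher in T2F3 LSK and 0.679% in T2F3 GMP.

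Of the chaperones and peptide trimming enzymes, 6 of 9 rose from WT LSK to WT GMP and 0 fell, against 5.72% and 7.37% of all genes. All 6 were chaperones or folding enzymes. The trimming peptidases did not pass: Erap1 had means of 93.7 and 104.6 CPM (adjusted p = 0.585, edgeR) and Lnpep means of 149.1 and 134.3 CPM (adjusted p = 0.613). Nor did the chaperone gene Tapbpl, whose libraries overlapped, with means of 36.2 CPM in WT LSK and 48.3 CPM in WT GMP. Calr (calreticulin, part of the loading complex) rose 4.36-fold, from 329.4, 507.5 and 518.0 CPM to 1907.5, 2091.4 and 1902.7 CPM (adjusted p = 0.000801, edgeR). Hspa5, a general chaperone of the endoplasmic reticulum, rose 2.89-fold (adjusted p = 0.0011), and Pdia3, Canx, Ganab and Uggt1 rose as well. All of these also serve the folding of other glycoproteins. By genotype 1 of 9 was called in LSK, against 2.76% of all genes higher, Pdia3 (ERp57, the disulfide isomerase paired with tapasin), which rose 2.72-fold from 56.0, 121.9 and 108.8 CPM to 238.8, 270.4 and 269.7 CPM (adjusted p = 0.0306).

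Proteasome genes outside the members gave calls in T2F3 LSK. Of the activator genes, Psme2 rose by 2.98-fold (16.9, 25.1 and 21.2 CPM to 77.4, 60.9 and 50.4 CPM, adjusted p = 0.00516, edgeR) and Psme1 by 2.18-fold (adjusted p = 0.0143). The other 2 activator genes of the 4 did not pass, and 2.76% of all genes were called higher. Their means were lower in T2F3 LSK than in WT LSK (178.0 and 225.4 CPM for Psme3, 100.7 and 108.0 CPM for Psme4). Of 12 other subunits and assembly factors of the 20S core, 4 rose, against 2.76% of all genes: Psma1, Psma4, Psma7 and Psmb1, with Psma4 up 2.19-fold (adjusted p = 0.00891) and Psmb1 up 2.42-fold (adjusted p = 0.0193). The count of 4 was 2 without WT LSK replicate 1, 1 without WT LSK replicate 2, 1 without T2F3 LSK replicate 1, 2 without T2F3 LSK replicate 3 and 0 when blocked by library code. The activator count of 2 was 1 without T2F3 LSK replicate 1 and 0 when blocked by library code. In WT GMP against WT LSK, 2 of 12 core genes and 1 of 4 activator genes also rose, against 5.72% of all genes: Psma7 by 2.37-fold (adjusted p = 0.00942), Psmb1 by 1.82-fold (adjusted p = 0.0476) and Psme2 by 1.76-fold (adjusted p = 0.0447). The core count there was 1 without WT LSK replicate 1 or 2, WT GMP replicate 1, T2F3 LSK replicate 2 or 3 or T2F3 GMP replicate 2, and 0 when blocked by library code. The activator count there was 0 with the animal as a block, when blocked by library code, and without any 1 of the WT LSK libraries, WT GMP replicate 1 or 2, T2F3 LSK replicate 2 or any 1 of the T2F3 GMP libraries. The standard catalytic subunits Psmb5, Psmb6 and Psmb7 gave 0 of 3 calls in each comparison, against 0.0249% to 13.1% of all genes. By genotype in LSK 1 of 3 was at an unadjusted p under 0.05 (edgeR), against 21.5% of all genes.

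Among 19 transcription factors of class I genes and of interferon responses, 2 rose in T2F3 LSK, against 2.76% of all genes. Ciita, the class II transactivator, of the same family as Nlrc5, stood at 2.7, 7.9 and 8.28 CPM in WT LSK, against 123.0, 265.8 and 12.9 CPM in T2F3 LSK (21.3-fold, adjusted p = 0.0252, edgeR). It was also the 1 factor called in T2F3 GMP, against 0.679% of all genes higher there, at 37.9, 99.2 and 23.6 CPM from 1.37, 0.174 and 1.74 CPM in WT GMP (adjusted p = 0.0264). Irf8 rose 4.54-fold in LSK (adjusted p = 0.0446), though its T2F3 replicate 3 at 152.1 CPM was within the WT range of 108.3 to 221.2 CPM. The count of 2 in LSK was 0 without any 1 of WT LSK replicates 1, 2 and 3 or T2F3 LSK replicates 1 and 2, and 0 when blocked by library code. In WT GMP against LSK 2 of 19 fell, against 7.37% of all genes: Irf2 fell 2.24-fold (adjusted p = 0.00342) and Irf1, an inducer of class I and immunoproteasome genes, fell 1.73-fold (adjusted p = 0.0467). That count was 4 with the animal as a block, and 1 without any 1 of the WT LSK or WT GMP libraries.

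Of 34 interferon-induced genes, 11 fell from WT LSK to WT GMP, against 7.37% of all genes, among them the GTPases Irgm2 (3.37-fold, adjusted p = 0.00273, edgeR) and Gbp2 (3.74-fold, adjusted p = 0.0033). The count was 7 without WT GMP replicate 1 or replicate 2, 5 when both WT replicate 1 libraries were left out and 7 when blocked by library code. By genotype 3 of 34 rose in LSK and 1 of 34 in GMP, against 2.76% and 0.679% of all genes. Gbp7, a guanylate-binding GTPase, was called in both, at 37.6, 48.3 and 41.0 CPM in WT LSK, at 104.5, 154.0 and 123.8 CPM in T2F3 LSK, 30.3, 29.9 and 35.7 CPM in WT GMP and 101.5, 200.2 and 174.5 CPM in T2F3 GMP (adjusted p = 0.00507 and 0.00103). Gbp3 and Igtp were the other 2 in LSK, and the LSK count was 1 without WT LSK replicate 2 or T2F3 LSK replicate 1 and 0 when blocked by library code. Among 10 receptors and kinases of interferon signalling, 1 rose and 1 fell from WT LSK to WT GMP, against 5.72% and 7.37% of all genes. Ifngr1 rose 3.22-fold (adjusted p = 0.00361, edgeR) and Jak1 fell 1.7-fold (adjusted p = 0.0222). By genotype 0 of 10 were called in LSK and in GMP, against 5.2% and 1.14% of all genes. Polycomb repressive complex 2 is known to hold class I genes down in some tumours. Of 8 of its genes, 0 were called by genotype in LSK and in GMP, against 5.2% and 1.14% of all genes. From WT LSK to WT GMP 1 of 8 fell, against 7.37% of all genes. It was Ezh1, which fell 1.9-fold (adjusted p = 0.0192, edgeR). This call was lost without WT LSK replicate 1 or WT GMP replicate 2 and when blocked by library code.

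Class II genes, which present peptides from outside the cell to CD4 T cells, gave calls in both genotype comparisons: 5 of 10 rose in T2F3 LSK and 5 of 10 in T2F3 GMP, against 2.76% and 0.679% of all genes. These were H2-Aa, H2-Ab1, H2-Eb1, Cd74 and Ciita in both. Cd74, the invariant chain, stood at 10.0, 9.33 and 20.4 CPM in WT GMP and 399.7, 1122.5 and 333.5 CPM in T2F3 GMP (adjusted p = 0.0153, edgeR). From WT LSK to WT GMP 1 of 10 fell, against 7.37% of all genes. It was H2-Ob, a chain of the class II regulator DO, from 63.8, 54.5 and 96.0 CPM to 5.48, 8.5 and 14.4 CPM (log2 difference -2.92, adjusted p = 0.00437, edgeR). That count was 3 with the animal as a block, 4 without T2F3 LSK replicate 3 and 2 without WT GMP replicate 1. By genotype the LSK count ranged from 1 without WT LSK replicate 1 to 8 without T2F3 LSK replicate 3. It was 1 without WT LSK replicate 2 or T2F3 LSK replicate 1, and 3 without WT LSK replicate 3 or T2F3 LSK replicate 2. The GMP count was 0 without WT GMP replicate 1 or 2, 1 without WT GMP replicate 3 or T2F3 GMP replicate 2, 2 without T2F3 GMP replicate 1 and 3 without WT LSK replicate 2 or T2F3 LSK replicate 1 or 2. Both counts were 0 when blocked by library code. The 8 dendritic cell markers summed to 14.4 to 32.0 CPM in WT LSK, to 281.4, 431.3 and 18.8 CPM in T2F3 LSK replicates 1, 2 and 3, 5.24 to 8.03 CPM in WT GMP and 46.8 to 175.8 CPM in T2F3 GMP. By genotype 2 of the 8 rose in LSK (Xcr1 and Clec9a), against 2.76% of all genes. In GMP 0 of 8 were called, against 1.14% of all genes, and 6 were at an unadjusted p under 0.05 (edgeR), against 13.6%. Siglech and Ccr9 had lower means in T2F3 LSK (0.588 and 0.844 CPM) than in WT LSK (1.64 and 5.57 CPM). The 9 monocyte and macrophage markers summed to 64.3 to 82.0 CPM in WT LSK, against 434.3, 480.6 and 117.9 CPM in T2F3 LSK. T2F3 LSK replicate 3, low in class II and in these markers, was the lowest T2F3 LSK library for 4 of the 9 members (Tapbp, Tap1, H2-D1 and, narrowly, Psmb8). The lowest was replicate 2 for H2-K1, B2m and Psmb10 and replicate 1 for Tap2 and Nlrc5. The part of these cell types in the members' levels was not tested. By group, 1 of the 8 dendritic markers (Cd209a) had 0 counts in all WT LSK libraries. In WT GMP, T2F3 LSK and T2F3 GMP 0 of the 8 did.

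**Figure D4:**
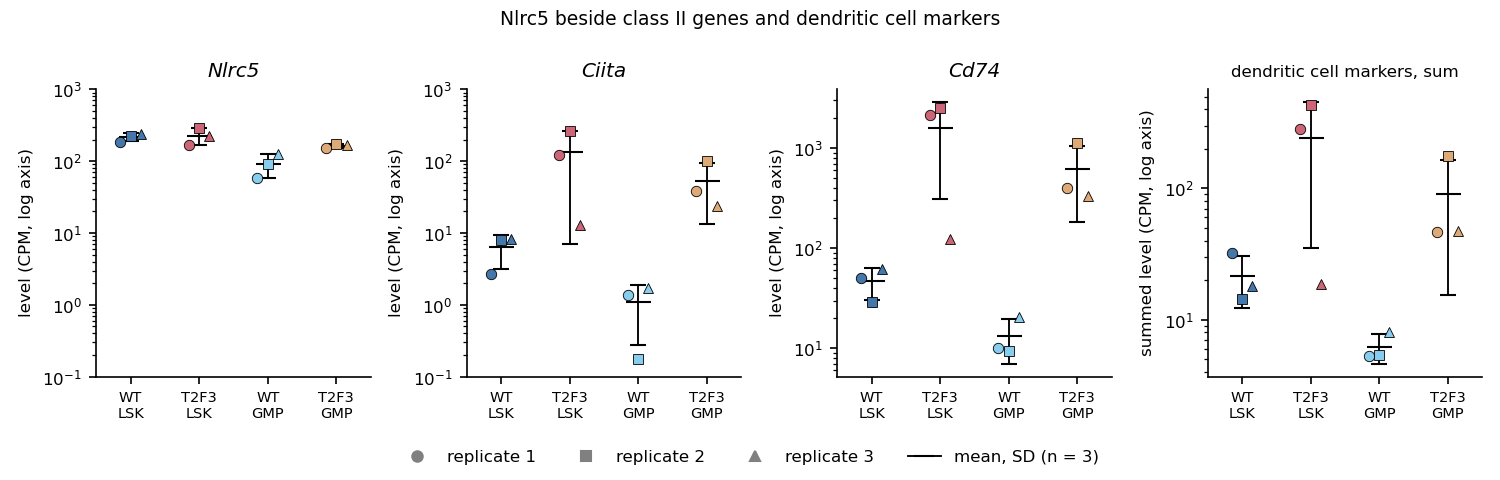
Level in CPM (log axes) of Nlrc5, Ciita and Cd74 and the summed level of 8 dendritic cell markers in the 12 libraries, with 1 point per library and bars for the mean and SD of 3 libraries. In T2F3 LSK, replicates 1 and 2 have 123.0 and 265.8 CPM of Ciita and replicate 3 has 12.9, while Nlrc5 stays between 166.6 and 287.3 CPM.

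Among 10005 genes with a mean of at least 5 CPM, those most like the mean standardised profile of the 9 members over the 12 libraries were H2-T22 (Pearson r = 0.88), Ly6a (0.86), Ifi27 (0.83), Zbed5 and Crip1 (both 0.82), Fdft1 (0.81), Acadm (0.8), Lmbrd1 (0.79), Ube2l6 and Mmaa (both 0.78). These r are a description over libraries that differ in depth, small RNA content (7.24% to 19.2% of counts) and cell makeup. The part of these differences in the r was not tested. H2-T22, a class Ib chain, stood at 39.2, 41.9 and 48.9 CPM in WT LSK and 29.2, 28.2 and 28.1 CPM in WT GMP (log2 difference -0.60 ± 0.25, adjusted p = 0.136, edgeR), and at 67.3, 40.8 and 33.6 CPM in T2F3 LSK and 39.5, 35.7 and 29.8 CPM in T2F3 GMP. Ly6a encodes Sca-1, a marker of LSK in the usual sense of the name, and is also induced by interferon. The sort protocol in the labels writes both populations as Sca-1 negative. Ube2l6, an enzyme that attaches the interferon-induced modifier ISG15, had means of 19.7, 26.0, 7.37 and 10.4 CPM in WT LSK, T2F3 LSK, WT GMP and T2F3 GMP.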

How the data were processed

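Per the labels' protocols, RNA was extracted with Trizol, depleted of ribosomal RNA and made into Ion Total RNA-seq libraries. Tools named in the submitters' processing notes were cutadapt 1.2rc2, TopHat2, TopHat, BWA 0.5.9, Picard and HTSeq with the mm9 build. The sources used here give neither their order nor the strand setting nor the handling of shared reads. The authors deposited raw gene counts for 12 libraries, with no normalization.

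Genes were kept by filterByExpr by group (minimum count 10), scaled with TMM factors and tested in edgeR 4.0.16 (R 4.3.3) with its quasi-likelihood F-test, in a model of 4 group means fitted to all 12 libraries (8 residual degrees of freedom). The Benjamini-Hochberg adjustment ran over 16042 genes within each of 5 comparisons. A count of 0 allows 3 counts, or 0.111 to 0.228 CPM, and this covers counting error only. Libraries of 1 group differed by more than sampling noise in every pair (chi-square of 78.3 to 416 for each degree of freedom). The scripts were tested on counts simulated for T2F3 with WT in LSK. Of 100 genes changed 2-fold 4 were called, and of 100 changed 4-fold 43, with 2 false calls among 49. A member with no call may therefore still differ by 2-fold. Because many 4-fold changes were also missed, a larger difference is not excluded either. LSK and GMP of 1 title stem were read as 1 animal, from the titles alone. The correlation of their deviations from group means over genes was 0.118 to 0.145 in WT and 0.295 to 0.433 in T2F3. Pairs of a WT and a T2F3 library with the same number gave -0.0151 to 0.219. The WT values lie within that range, so they do not establish the pairing in WT.

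Alternatives were other scaling, other filters, blocks by replicate number, animal or library code (a code in the labels whose meaning is not given), limma-voom (limma 3.58.1), DESeq2 1.42.0, only the 6 libraries compared, and leaving out libraries. The members and lists were chosen with earlier results of these data known. All members are named, and of each list, per comparison, up to 2 called genes in each direction ranked by p, with a mean of at least 1 CPM. Other called genes of the lists were named after their values were seen. Genes of like pattern are the 10 with the highest r. Ratios of counts and the list counts under the alternatives were added after seeing the data.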

Additional observations from a re-analysis of the deposited data

How the results depend on the processing

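Of 1053 values of single members under the alternatives, 1007 kept their direction and their side of the threshold, 7 lost a call, 7 gained one and 32 changed sign, and all changes of sign were of members not called. Scaling moved the median of all genes by under 0.1 on the log2 scale. No member was called by genotype in LSK, for the difference of effects, or between populations in T2F3 under any alternative run, and in GMP limma-voom called 1 (Nlrc5). Of GMP against LSK in WT, members called numbered 4 with the animal as a block, limma-voom or DESeq2, 1 with only the 6 libraries or without both WT replicate 1 libraries, 0 with the library code as a block, and 1 to 2 with 1 library left out. The replicate number as a block, which pairs WT and T2F3 libraries by number only (correlation of deviations -0.0151 to 0.219), gave 2 there and 0 in the other comparisons, and changed no call of a member, while class II calls in GMP numbered 3 with it in place of 5. Apart from the calls of Tap1 and H2-K1 given with their results, the animal as a block changed none either.

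With both WT replicate 1 libraries left out, the log2 difference by genotype was -0.056 for Nlrc5 in LSK and, in GMP, 0.064 for Tapbp and 0.024 for Psmb8; limma-voom gave 0.027 for Tapbp in GMP and 0.016 for the difference of effects of H2-D1. With the library code as a block Psmb10 was at 0.176 in GMP, -0.099 for the difference of effects and 0.276 between populations in T2F3, and Tap1 at 0.033 for the difference. H2-D1 between populations in T2F3 was at 0.022 without both T2F3 replicate 1 libraries and 0.0 with only 6 libraries. The cause was not tested for any of these.

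With 1 library left out in turn, the values that changed sign ran, by genotype in LSK, from -0.111 to 0.262 for Tap1 and -0.144 to 0.244 for Nlrc5. In GMP they ran from -0.261 to 0.064 for Tapbp, -0.223 to 0.024 for Psmb8 and -0.34 to 0.217 for Psmb10. For the difference of effects they ran from -0.28 to 0.057 for H2-K1, -0.197 to 0.06 for H2-D1 and -0.337 to 0.059 for B2m. Between populations they ran from -0.128 to 0.03 for H2-D1 in WT, and in T2F3 from -0.129 to 0.128 for H2-D1, -0.395 to 0.001 for B2m and -0.382 to 0.118 for Psmb10. Log2 ratios of Tap1 to Tap2 between populations ran from -0.064 to 0.165 in WT and -0.069 to 0.379 in T2F3, of Psmb8 to Psmb5 from -0.134 to 0.437 by genotype in GMP and -0.488 to 0.083 between WT populations, and of Psmb10 to Psmb7 by genotype from -0.079 to 0.025 in LSK and -0.018 to 0.435 in GMP. That of B2m to the heavy chains between populations ran from -0.105 to 0.112 in WT and -0.149 to 0.09 in T2F3. Of the lists, limma-voom called 10 class Ib genes lower in WT GMP in place of 6, and 2 class II genes by genotype in each population in place of 5. Without both T2F3 replicate 1 libraries the class II counts were 0 in LSK and 1 in GMP, and without both WT replicate 1 libraries 1 and 0. Factors called higher in T2F3 LSK numbered 1 in place of 2 with limma-voom or only the 6 libraries. Of GMP against LSK in WT, limma-voom called 5 and DESeq2 4 core proteasome genes in place of 2. The members had at least 975 counts per library, and no alternative varied the depth.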
